A study of Homo sapiens with 6 samples.

Results

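UBE2C, CDC20, PTTG1, AURKA and DBF4 are 5 genes whose products act in mitosis, in its exit or at the start of DNA synthesis, and their transcripts were followed in LP-1 cells depleted of RNF5. They were chosen by name, and all 5 had a row in the deposited table of 1877 genes (Ensembl identifiers ENSG00000175063, ENSG00000117399, ENSG00000164611, ENSG00000087586 and ENSG00000006634, on chromosomes 20, 1, 5, 20 and 7). LP-1 is an established human multiple myeloma cell line. RNA sequencing covered 6 libraries of it, 3 from cells in which a short hairpin RNA lowered RNF5, an E3 ubiquitin ligase held in the endoplasmic reticulum membrane, and 3 non-target controls. All cells were grown in RPMI-1640 with 15% serum. The hairpins used, the time of harvest and the cultures behind the libraries of a group are not stated, so every p-value measures only the spread between these libraries, which may be technical.

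Exit from mitosis depends on the anaphase-promoting complex, a ubiquitin ligase that marks mitotic proteins for the proteasome. CDC20 brings substrates to the complex once the spindle checkpoint is satisfied, and UBE2C is the ubiquitin-conjugating enzyme that begins the chains. Securin, the product of PTTG1, holds separase inactive until the complex destroys it, and the kinase AURKA, which matures centrosomes and builds the spindle, is destroyed later in mitosis. DBF4 acts in the next S phase, as the regulatory subunit that activates the kinase CDC7 at replication origins. Transcripts of such mitotic genes are known to peak in G2 and M, through promoters that often carry CCAAT boxes, bound by NF-Y, and a cell cycle homology region (CHR), bound by the DREAM and MuvB complexes.

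Stretches before the transcription starts of the 5 genes are shown first, where available, in genome build GRCh38.p14 from RefSeq. A part of these promoters in the changes below was not tested. CDC20, PTTG1 and DBF4 were matched by symbol (3 of 5 genes), PTTG1 at the more upstream of its 2 starts, and UBE2C and AURKA were not. Capitals mark CCAAT or its reverse complement ATTGG, the CHR form TTTGAA or its reverse complement TTCAAA, and the CHR form TTTAAA, which is its own reverse complement. The plus strand is printed 5′ to 3′, without the parts that GENCODE release 29 places in exons, except for the last bases at PTTG1 and a short stretch at DBF4, where DBF4 and SLC25A40 transcripts on opposite strands cover the window.
CDC20, chr1:43358731-43358954: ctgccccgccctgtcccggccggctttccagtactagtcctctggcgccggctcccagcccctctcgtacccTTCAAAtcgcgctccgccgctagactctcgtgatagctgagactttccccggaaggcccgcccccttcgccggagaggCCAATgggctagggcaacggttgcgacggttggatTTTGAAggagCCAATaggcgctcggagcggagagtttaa
PTTG1, chr5:160421712-160421831: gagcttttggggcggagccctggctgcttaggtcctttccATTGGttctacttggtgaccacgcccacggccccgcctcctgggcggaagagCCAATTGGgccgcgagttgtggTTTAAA
DBF4, chr7:87876478-87876507: gcgtgacgcgttTTCAAAtcttcaaccgcc

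The CDC20 window held 2 CCAAT boxes, which began 100 and 55 bases before the start, and TTTGAA at 65 bases before it, between them. Its other TTTGAA match lay on the reverse strand, 178 bases before the start. PTTG1 held 3 CCAAT matches, of which the pair nearest the start overlap on opposite strands, and TTTAAA 29 bases before the start. DBF4 had no CCAAT match in its window and a single TTTGAA match, on the reverse strand across the start itself. Of all 35116 windows of 300 bases in the RefSeq table, 34.6% held CCAAT on either strand, 15.2% TTTGAA and 12.2% TTTAAA. The CCAAT box together with either CHR form was found in 9.27% of these windows. A match is a run of letters and says nothing of binding in these cells.

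**Figure D1:**
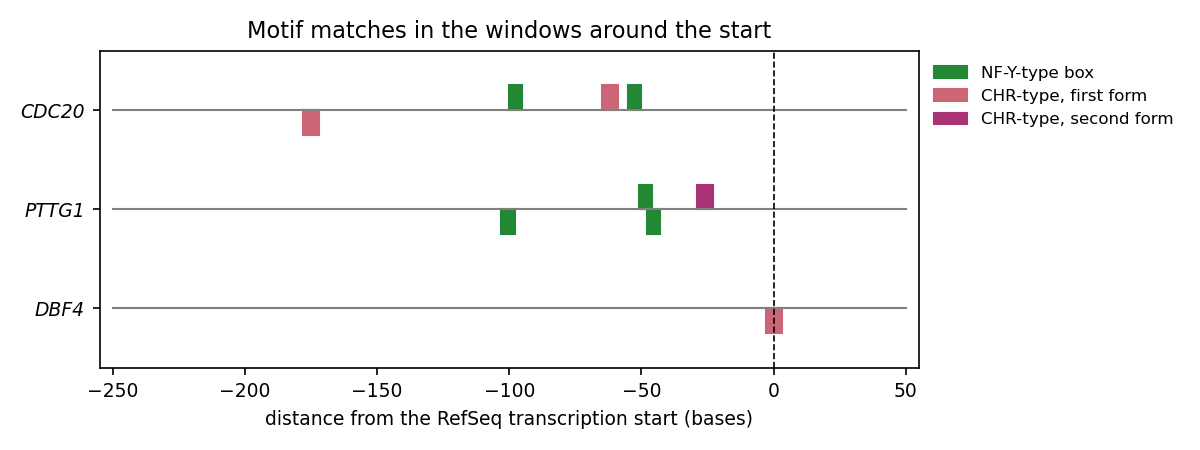
Matches to the CCAAT box (bound by NF-Y) and to the TTTGAA (first) and TTTAAA (second) CHR forms in the windows of CDC20, PTTG1 and DBF4, by distance in bases from the RefSeq start. Boxes above a line are on the strand of the gene and boxes below it on the other. CDC20 and PTTG1 hold both kinds of motif just before the start, while the single match at DBF4 lies on the start.

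The deposited values are normalized abundances on a scale that is not given, for genes that all have a deposited log2 fold change of 1 or more in size and an adjusted p under 0.05, 924 of them higher and 953 lower (50.8%) in the knockdown. Since that set rests on these same libraries, a gene that passes a test here gives no further support for a change, and a gene left out of the set has no value. RNF5 itself was at 5.90% of its control mean (log2 fold change -4.06, limma adjusted p = 1.34e-08), which fits the labels of all 6 libraries. The set added up to 90825 to 93975 per control library and to 116843 to 122079 per knockdown library, which is not a depth, and the depth is unknown. Fold changes are knockdown minus control on log2(value + 1), from limma fitted to the 1290 genes that reached 1 in at least 3 libraries, and means are given ± SD of 3 libraries.

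All 5 genes were lower after RNF5 depletion, and in each of them every knockdown library lay below every control library. The fall was deepest for the partners of the anaphase-promoting complex, CDC20 (2.90-fold) and UBE2C (2.73-fold). It was intermediate for PTTG1 (2.28-fold) and AURKA (1.93-fold), and smallest for DBF4 (1.71-fold). This order did not hold once the length trend of protein-coding genes was removed. In the authors' deposited log2 fold changes DBF4 (-1.05) also fell slightly more than AURKA (-1.03). All 5 passed at an adjusted p under 0.05, as did 542 of the 1290 genes tested (42.0%) in the same direction. Every knockdown value lay below every control value in 854 of the 1877 listed genes (45.5%). Most protein-coding genes tested also fell, 446 of 869 (51.3%), and as the 5 genes were named with earlier results known, nothing particular to them is read from their count against these shares. In bulk RNA, fewer cells in G2 and M and less transcript per cell cannot be told apart.

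Controls 1, 2 and 3 gave 357.80, 367.49 and 407.39 for UBE2C, and knockdown libraries 1, 2 and 3 gave 138.91, 138.00 and 138.31. The groups lay far apart, with the lowest control 2.58 times the highest knockdown value. Its mean was 378 ± 26.3 in the controls and 138 ± 0.463 after knockdown (fold change on the log2 scale -1.44, SE 0.14, limma adjusted p = 7.20e-06). The 3 knockdown libraries were almost equal, with a coefficient of variation of 0.334%, and 2 of 598 tested genes with a mean of at least 5 varied less there. The median of those genes was 9.72% in the knockdown and 21.5% in the control libraries.

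CDC20 measured 198.14, 200.51 and 144.27 in the controls and 60.70, 61.68 and 64.79 in the knockdown. Control library 3 was the low one, and it was still 2.23 times the highest knockdown value. CDC20 averaged 181 ± 31.8 without and 62.4 ± 2.14 with the RNF5 hairpin (a log2 fold change -1.51, SE 0.17, limma adjusted p = 1.95e-05). In the authors' deposited table CDC20 had the smallest adjusted p of the 5 genes (4.98e-52, with log2 fold change -1.71), the 14th smallest of the 953 genes listed as lower. UBE2C was 68th there, with a log2 fold change of -1.60.

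PTTG1 measured 80.84, 85.60 and 120.91 in the controls and 38.60, 43.19 and 44.20 in the knockdown. Here control library 3 was the high one, opposite to its place for CDC20. PTTG1 averaged 95.8 ± 21.9 and 42.0 ± 2.98, respectively (a log2 fold change -1.15, SE 0.19, limma adjusted p = 0.000167). ESPL1, which encodes the separase that securin restrains, was not among the listed genes.

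AURKA measured 173.18, 139.06 and 126.74 in the controls and 70.41, 78.46 and 78.40 in the knockdown. No library of one group reached the other, and the lowest control was 1.62 times the highest knockdown value. The AURKA mean was lowered from 146 ± 24.1 to 75.8 ± 4.63 (its log2 fold change -0.93, SE 0.17, limma adjusted p = 0.000311). On the authors' deposited scale AURKA was just past the threshold of their selection, with a log2 fold change of -1.03.

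DBF4 measured 57.44, 42.50 and 47.10 in the controls and 22.56, 35.16 and 28.06 in the knockdown. It was the gene with the narrowest gap of the 5, the lowest control being 1.21 times the highest knockdown value. DBF4 averaged 49.0 ± 7.65 and 28.6 ± 6.32 (a log2 fold change -0.77, SE 0.20, limma adjusted p = 0.00317), and the authors' deposited log2 fold change was -1.05. Its knockdown libraries were also the most uneven of the 5 genes, with a coefficient of variation of 22.1%, above that of 540 of the 598 genes. Knockdown library 1 was at 0.714 times the mean of knockdown libraries 2 and 3, and longer genes tended to be lower in it (given below). For each of the 5 genes the exact 2-sided permutation test on the library values gave p = 0.1, the smallest that 3 against 3 libraries allow.

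**Figure D2:**
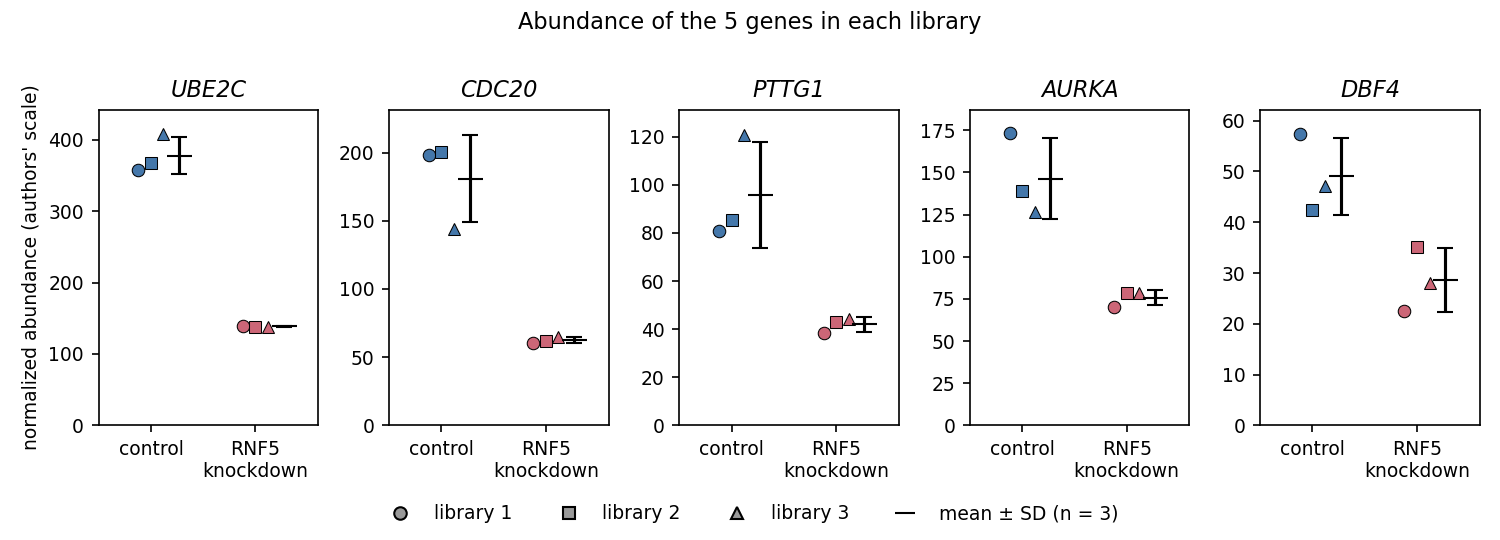
Normalized abundance (vertical axes from 0, each gene on its own scale) of the 5 genes in the 3 control and 3 knockdown libraries, marked by library number, with mean and SD beside the points. In every panel the knockdown points lie below the controls, with the narrowest gap for DBF4 (35.16 against 42.50), and control library 3 is the highest control for UBE2C and PTTG1 but the lowest for CDC20 and AURKA.

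How libraries were scaled set the size of these falls. The median log2 fold change over all genes tested was 0.73, and that of the protein-coding genes -0.57. Dividing each library by median-of-ratios size factors moved the median of all genes by -0.506, to 0.22. The falls became -2.34 for CDC20, -2.28 for UBE2C, -1.98 for PTTG1, -1.77 for AURKA and -1.59 for DBF4. The factors were computed from the listed genes, which were all selected as changed, so this scaling cannot say which size is right. Relative to the median of all genes the 5 were lower under either scaling, which follows from their being listed as lower and is no further support.

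Ratios between pairs of the 5 genes within a library do not depend on how libraries are scaled, apart from the added 1, and set the falls side by side. Of the 10 pairs, 4 had groups that did not overlap, namely each of UBE2C and CDC20 over each of AURKA and DBF4. The pairs share genes and are not independent, and no share over pairs of other genes was computed. The ratios still carry the length trend given below. With that of protein-coding genes removed, the log2 fold changes were -0.95 for UBE2C, -1.29 for CDC20, -0.77 for AURKA and -0.95 for DBF4. The log2 ratio of CDC20 to AURKA was 0.19, 0.52 and 0.19 in the controls and -0.21, -0.34 and -0.27 in the knockdown libraries, so that CDC20 lost 0.58 more than AURKA on the log2 scale. CDC20 over DBF4 changed by -0.74, UBE2C over DBF4 by -0.67 and UBE2C over AURKA by -0.51. Each of these 4 had p = 0.1 in the exact 2-sided permutation test, the smallest possible value, and an adjusted p of 0.25 over the 10 pairs, which does not pass, so no pair was shown to differ. In these data UBE2C and CDC20 could not be ordered, since their ratio changed by 0.07 (p = 1, exact permutation test), with control values from 0.85 to 1.49 that span the knockdown values of 1.08 to 1.18. PTTG1 overlapped with each of the other 4, its ratio to AURKA running from -1.09 to -0.07 in the controls and from -0.85 to -0.81 in the knockdown. The pair AURKA and DBF4 overlapped as well (change -0.16).

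**Figure D3:**
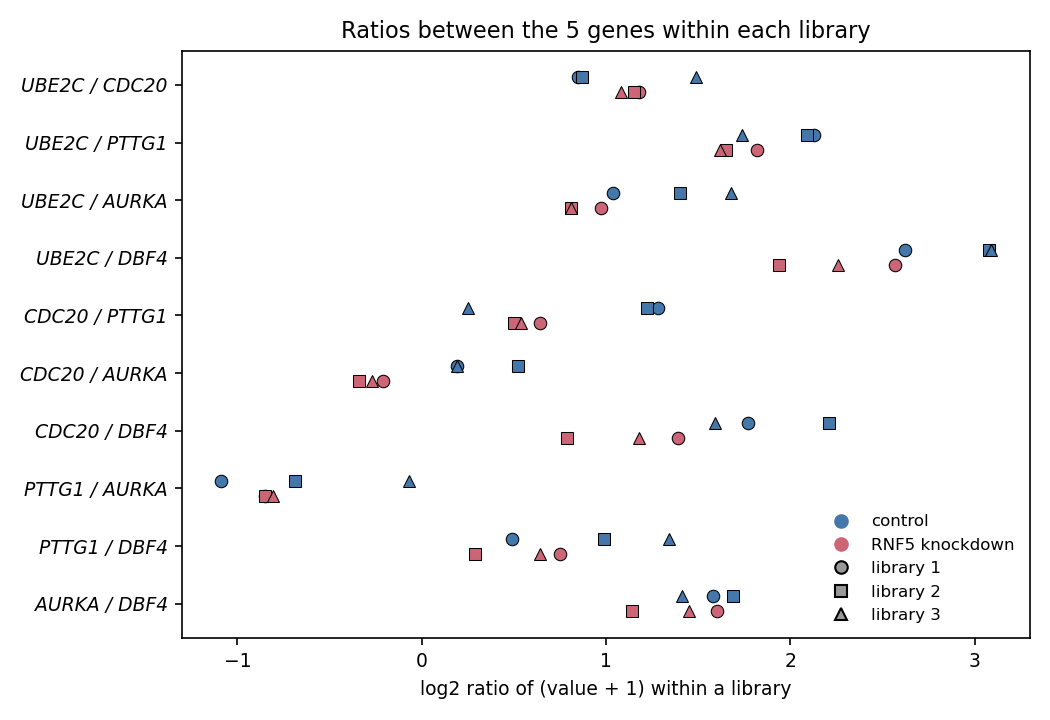
log2 ratio of (value + 1) for the 10 pairs of the 5 genes (horizontal axis) in each control and knockdown library. Points of the 2 groups are apart for UBE2C and CDC20 over AURKA and DBF4, and mixed for the other 6 pairs, where control library 3 is often far from controls 1 and 2.

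Other genes of mitosis in the table moved the same way. Over 8 cell-cycle lists that held a listed gene, and one that held none, 20 of 183 genes were in the authors' set, 18 of them lower and 2 higher, all past the test (background 42.0% lower and 55.7% higher over all genes tested, and 51.3% lower over the protein-coding ones, as these 20 are). The other 163 genes have no values here, so that no share of a pathway can be given as changed or unchanged. Of 50 G2/M and mitosis genes 13 were listed and each of them fell, by a median of -1.05 on the log2 scale (range -1.51 to -0.72) beside 0.73 over all genes tested, -0.57 over the protein-coding ones and -0.93 over those called lower, and 4 of the 13 belong to the 5 genes above. They were joined by PLK1, the kinase of mitotic entry and exit, from 209 ± 53.8 to 99.2 ± 1.42. CKS2, a small subunit of cyclin-dependent kinases, fell from 238 ± 82.0 to 86.4 ± 1.21, and its relative CKS1B from 760 ± 154 to 399 ± 4.99. Further falls were those of CDKN3 (log2 fold change -1.05), a phosphatase acting on cyclin-dependent kinases, the mitotic kinase NEK2 (-1.16), the centromeric histone CENPA (-0.91), and the cytokinesis genes ANLN (-1.07), PRC1 (-0.92) and KIF23 (-0.72).

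The machinery around each of the 5 genes was otherwise thinly represented. Among 19 genes for the subunits, activators, conjugating enzymes and inhibitor of the anaphase-promoting complex, UBE2C and CDC20 were the ones listed. Of 30 substrates of the complex 8 were listed and each fell (median -1.05 on the log2 scale), among them the kinesin KIF18A (-1.18) and SGO1 (-0.85), the protector of centromeric cohesion. Over all genes tested 42.0% were called lower, and 51.3% over the protein-coding ones. The other listed substrates, PTTG1, AURKA, PLK1, NEK2, ANLN and PRC1, are already among the G2/M genes above. The lists therefore overlap and do not add separate support. From the 16 genes of the spindle assembly checkpoint, NUF2 of the outer kinetochore was listed and fell (-0.87). Of 16 genes for separase, securin and cohesin, PTTG1 and SGO1 were listed, which are also in the substrate list. Besides AURKA, the 15 Aurora and passenger complex genes gave PLK1 and AURKC, a kinase best known from germ cells, which averaged 1.92 ± 0.565 without and 0.670 ± 0.335 with the RNF5 hairpin. The AURKC fall (log2 fold change -0.81, limma adjusted p = 0.00147, range 1.67e-05 to 0.0628 over the alternatives) did not pass once the length trend of protein-coding genes was removed (-0.41, limma adjusted p = 0.0628). The latter value is relative to listed genes of like length.

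DBF4 stood alone in its list. Of 33 genes of origin licensing and firing, among them CDC7, the subunits MCM2 to MCM7 and the origin recognition complex, DBF4 was the one listed. None of 24 regulators of cell-cycle transcription, such as FOXM1, MYBL2 and the E2F factors, was listed. The G1/S list of 16 genes had 2 listed members, and both rose, as did 718 of the 1290 genes tested (55.7%). CCNE1, which encodes cyclin E1, averaged 1.81 ± 0.344 in controls and 3.85 ± 0.739 in the knockdown (0.78 on the log2 scale, limma adjusted p = 0.00237). CDKN2C, an inhibitor of CDK4 and CDK6, averaged 243 ± 16.8 and 508 ± 10.4 (1.06 on that scale, limma adjusted p = 4.15e-05). Neither rise passed under median-of-ratios scaling, whose factors rest on genes selected as changed, so that this scaling cannot settle the rises. CCNE1 was then at 0.17 (limma adjusted p = 0.261, range 0.000176 to 0.261 over the alternatives). CDKN2C was at 0.21 (limma adjusted p = 0.114, range 8.38e-06 to 0.114).

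**Figure D4:**
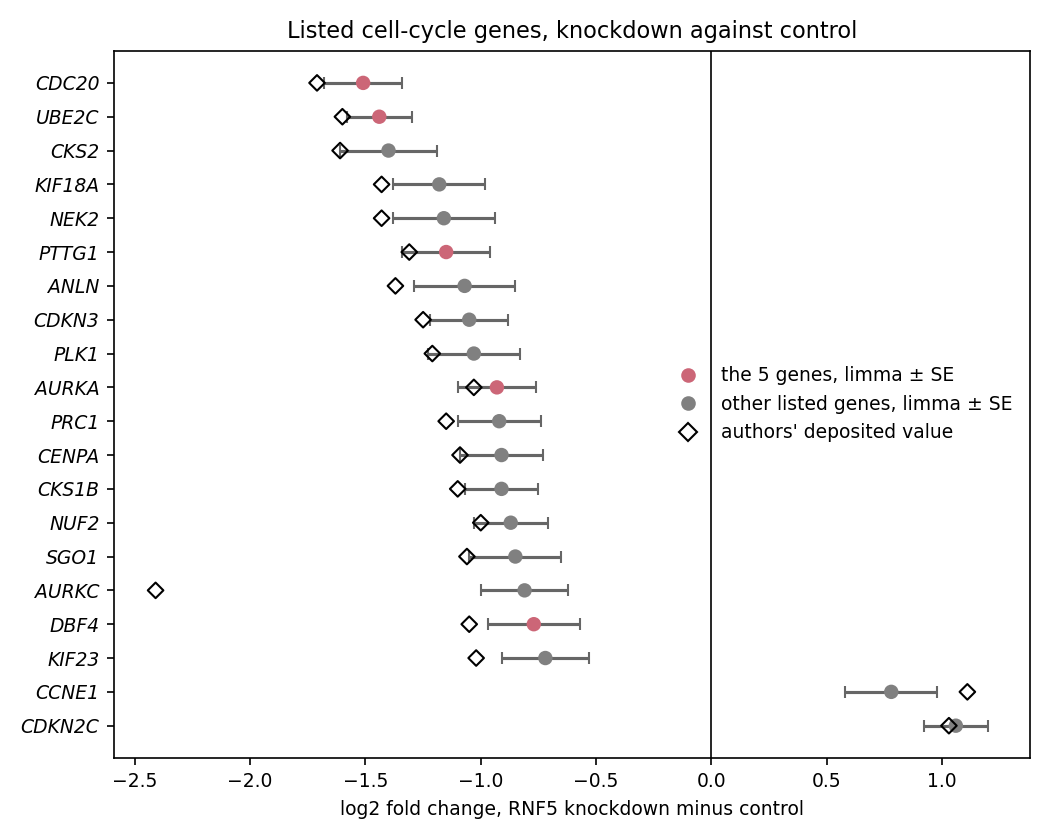
log2 fold change with SE from limma (filled points; the 5 genes in red) and the authors' deposited log2 fold change (open diamonds) for the 20 listed cell-cycle genes. CDC20 and UBE2C lie at the low end (-1.51 and -1.44, before any length correction), DBF4 near the high end of the 18 genes that fell (-0.77), and CCNE1 and CDKN2C are above 0.

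The promoter letters shown above recurred in this set. Of the 18 genes that fell, 16 had a RefSeq window, and in any of their windows 13 held CCAAT (81.2%), 13 held TTTGAA or TTTAAA (81.2%) and 10 held both kinds (62.5%). Over all 27305 genes of the RefSeq table, counted in the same way, these shares were 39.7%, 27.9% and 11.2%. DBF4 was among the 6 that did not hold both. The lists were drawn up from known mitotic genes, for which these motifs are a known feature, and the shares describe the list and not the effect of the knockdown.

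Transcript length moved with the differences between replicates. When the 18 listed cell-cycle genes that are protein-coding, with a mean of at least 5, were ordered by their longest transcript in GENCODE release 29, control library 3 was the highest control in the 5 shortest, CKS2, CKS1B, UBE2C, CDKN3 and PTTG1 (613 to 1070 bases), and in none of the other 13 (1452 to 4787 bases). Over 453 protein-coding genes tested, log10 length and the deviation of control library 3 from the other controls had a Pearson r of -0.53. The Spearman rho was -0.49, across genes that share libraries and are not independent. For the deviation of knockdown library 1 from the other knockdown libraries, r was -0.36 and rho -0.38 over the same genes. Over the 18 cell-cycle genes these were -0.66 and -0.62. UBE2C (914 bases) in control library 3 was at 1.12 times the mean of the other controls and PTTG1 (1070 bases) at 1.45 times, against 0.724 for CDC20 (1777 bases), 0.812 for AURKA (2248 bases) and 0.943 for DBF4 (3907 bases). The length trend of protein-coding genes was then removed from each library, an alternative added with the data in view. The log2 fold change became -0.95 for UBE2C, -1.29 for CDC20, -0.69 for PTTG1, -0.77 for AURKA and -0.95 for DBF4. The trend was fitted on listed genes centred over both groups, so it also takes out their mean group difference at a given length. These values are therefore relative to listed genes of like length. All 5 still passed (limma adjusted p from 8.89e-06 for CDC20 to 0.00129 for PTTG1), but the falls of UBE2C and DBF4 then had the same size. With the trend fitted over genes of all classes the same values were -1.70, -1.62, -1.34, -1.04 and -1.02. Across genes, log10 length and the log2 fold change had r = 0.17 and rho = 0.20 over the 453 protein-coding genes, and r = 0.34 and rho = 0.42 over the 18 cell-cycle genes, which include the 5, as a description of these libraries.

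**Figure D5:**
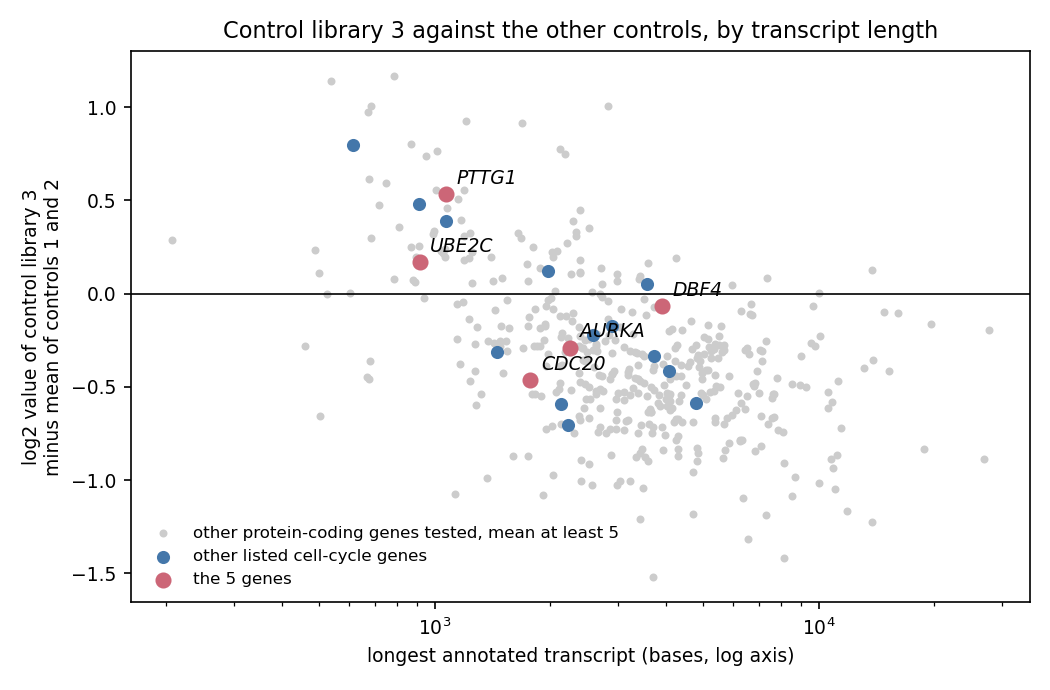
Deviation of control library 3 from the mean of controls 1 and 2 on log2(value + 1) (vertical axis) against the longest annotated transcript in bases (log axis), for protein-coding genes. UBE2C and PTTG1 lie above 0 with the short genes, and AURKA and CDC20 below 0, as most longer genes do.

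Genes most like each of the 5 across the 6 libraries were found by the root mean square difference of log2(value + 1), centred on each gene's mean, among 534 other named genes with a mean of at least 5. For UBE2C these were FAM72B (0.071), the mitochondrial ribosomal gene MRPS6 (0.102) and CACYBP (0.112). CDC20 was closest to FKBP4 (0.088), a co-chaperone of HSP90, LRP12 (0.101) and PIR (0.104), and PTTG1 to AK6 (0.103), CDKN3 (0.116) and the proteasome subunit PSMB6 (0.122). AURKA was closest to the sorting nexin SNX2 (0.038), the G protein subunit GNA13 (0.055) and GTF3C3 (0.060), a subunit of the factor TFIIIC. DBF4 was closest to the transcription factor PLAG1 (0.076), TVP23C-CDRT4 (0.098) and the cystine transporter SLC7A11 (0.098). CDKN3 was the one cell-cycle list gene among these 15. The 5 genes were not each other's nearest neighbours. As each gene was centred over both groups, the distance also counts the size of the fall, which was 2.73-fold for UBE2C and 2.72-fold for FAM72B. Genes that fell by different amounts lie apart by it, and shared regulation was not tested. UBE2C ranked PTTG1 25th (0.199) and CDC20 31st (0.215), and for AURKA the nearest of the other 4 was DBF4, in rank 109 (0.178).

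Reads could be shared with other genes to a limited extent. Of the 50-base stretches in the longest coding transcript, 0.231% in UBE2C, 3.82% in PTTG1, 7.91% in AURKA, 9.03% in CDC20 and 18.1% in DBF4 also occur in a transcript of another gene in GENCODE release 29. For DBF4 these all belong to the pseudogene DBF4P1, for CDC20 to CDC20P1 and for PTTG1 to PTTG3P. A further part of DBF4 overlaps SLC25A40 on the other strand (142 of 4583 exonic bases), and whether counting used the strand is not stated. None of these genes was in the deposited table, and their part in the values was not tested.

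Markers of cell types gave little further information. Of 12 plasma cell markers SDC1 was listed, at 9.20 to 14.45 in the controls and 34.13 to 36.19 in the knockdown. None of 10 T and NK cell, 10 myeloid and 9 erythroid and platelet markers was listed. Of 8 fibroblast markers COL1A1 was listed, at 0.47 to 0.72 in the controls and 0.07 to 0.44 in the knockdown, and of 6 epithelial and packaging cell markers CLDN4, at 1.85 to 3.17 and 1.29 to 1.48. Since the authors listed changed genes alone, an absent marker has no level here, and the part of other cells in the falls was not tested.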

How the data were processed

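RNA of 3 RNF5 knockdown and 3 control libraries of LP-1 cells was sequenced. Bowtie 0.12.2 and build hg19 are named, with no step, per the submitters' processing notes. The authors deposited a normalized signal per library and its group means, on a scale not given in the sources used here, for genes they had selected. The fold ratio, its log2 value, the p-value and its adjusted form are also the authors' and deposited, with a test that is not given. The log2 ratio of library means exceeded the deposited log2 value by a median of 0.173 over 431 genes with both means at least 5.

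Values were analysed as log2(value + 1) with limma 3.58.1 (mean-variance trend, group as the only term) in R 4.3.3, on the 1290 genes that reached 1 in at least 3 libraries, leaving out 587. Benjamini-Hochberg adjustment ran over all genes tested. The fit was tested on simulated data. A fold change on this scale understates that of low genes. No depth and no counting interval can be given. Ratios within libraries and exact permutation tests used scipy 1.17.1 in Python 3.11.15. Gene lengths came from GENCODE release 29 by identifier (1697 genes, 90.4%) and promoter windows from RefSeq on GRCh38.p14. No gene coordinate of the hg19 files was given or converted.

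The members and lists were chosen with earlier results of these data known. Named were the 5 genes, RNF5, every listed gene of the cell-cycle and marker lists, and for each of the 5 the 3 genes of the most similar pattern. Other pseudocounts, filters, scalings, a length correction, the replicate number as a block and leaving out each library were tried.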

Additional observations from a re-analysis of the deposited data

How the results depend on the processing

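UBE2C, CDC20, PTTG1, AURKA and DBF4 were listed as lower by the authors from these same libraries. Their falls kept direction and passed limma in each of 16 alternatives, which is therefore no further support for a change. Their log2 fold changes ran from -2.28 to -0.95, -2.34 to -1.29, -1.98 to -0.69, -1.77 to -0.77 and -1.59 to -0.61, and the largest adjusted p values were 0.000133, 0.000267, 0.00129, 0.00197 and 0.0231. Leaving out 1 library at a time gave -1.48 to -1.38, -1.66 to -1.42, -1.26 to -0.97, -1.03 to -0.80 and -0.92 to -0.61. An arm of 2 was then fitted with the spread pooled over both groups. Some of the 16 alternatives could not alter a log2 fold change and bear only on the adjusted p. These were the gene filters, limma without a trend, the replicate block and the fit to protein-coding genes alone.

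Genes changed numbered 1260 (718 higher, 542 lower), 591 with a mean of at least 5, and 796 with the length trend of protein-coding genes removed, where fewer genes were tested (598 and 855). Median-of-ratios scaling, with factors from the listed genes alone, gave 454 higher and 561 lower (44.7% higher in place of 57.0%). Libraries left out gave 1076 to 1161. Rises in the G1/S list numbered 1 with a mean of at least 5, where CCNE1 was not tested, and 0 under median-of-ratios scaling. The counts of the other 7 lists kept within 1.5 times. Of 238 values for the 15 other cell-cycle genes, 235 kept their call, and the 3 that did not are given above for AURKC, CCNE1 and CDKN2C.

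Leaving out 1 library, the change in the UBE2C to CDC20 ratio ran from -0.04 to 0.28 and that of PTTG1 to AURKA from -0.46 to 0.06, so neither has a settled direction. The values were -0.04 without control library 1 and -0.03 without control library 2 for the first, and 0.06 without control library 3 for the second.

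Same-numbered libraries did not deviate together (r = -0.165, -0.071 and -0.082 over 1290 genes), so no pairing by number was seen. The labels do not say whether libraries were prepared in pairs. The replicate block gave 1272 changed genes. It left the 5 falls at -1.44, -1.51, -1.15, -0.93 and -0.77, which is fixed when each number occurs once in each group. The unchanged falls therefore say nothing about pairing. Unknown depth and 3 libraries a group limit what differences can be shown.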
